A study of Mus musculus with 22 samples.

Results

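The 33 genes described here are a list of fetal liver macrophage genes, followed in blood stem cells sorted from mouse fetal liver cultures. Each gene was read from the probe set that carries its symbol alone, and where a gene had more than 1 such probe set, as Maf did with 2, the brightest on average over the 22 arrays was taken. All 33 genes were found, among 22180 genes with such a probe set. The list names genes by what they are known for, but it was drawn up with earlier results of these data known. The choice of probe set used the measured signals.

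Livers of wild-type C57Bl/6J embryos at E14.5 were dissected and their cells were cultured on OP9-DL1 cells, a bone marrow stromal line that carries a Notch ligand. The cultures lasted 4 h or 10 h, with gamma-secretase inhibitor (GSI) at 1 uM or with DMSO, its solvent, and SLAM LSK cells, a surface phenotype of haematopoietic stem cells, were then sorted by flow cytometry for RNA. Of the 22 samples, 14 were cultured for 4 h (7 with DMSO, 7 with GSI) and 8 for 10 h (4 with each). Each replicate was a DMSO and a GSI sample, which form a pair, and a pair is called a culture below. All groups share the strain, the age, the feeder cells with their Notch ligand and the sort, so no group lacks the feeder layer, and none was sorted without culture.

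Macrophages settle in the fetal liver before the stem cells expand there, and they stand at the centre of erythroblastic islands, where they engulf the nuclei that maturing red cells expel and return their iron. They recognise dying cells and debris through scavenger receptors, through the C1q chains of complement and through receptor kinases, and they break down what they engulf in lysosomes. A stem cell sort aims to leave these cells out, so the list asks how much macrophage RNA the sorted samples carry and how evenly. In bulk RNA, fewer cells of a type and less RNA per cell cannot be told apart.

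The values are deposited log2 signals from 22 arrays, and array medians over all probe sets lay between 5.03 and 5.12 at 4 h and between 4.45 and 4.52 at 10 h. Sample codes in the labels divide the arrays into sets, called runs here, though what the codes stand for is not given in the sources used here. At 4 h there were 3 runs, the first with pair 1 alone, another with pairs 2 and 3 and the last with pairs 4 to 7. The 10 h arrays fell into 2 runs of 2 pairs each, and no run held both times. Kit, which is part of the LSK phenotype, stood at least 3.84 above the gene median of its array on all 22 arrays. Procr, a gene of the stem cell list used below and not a marker named for the sort, stood at least 1.54 above it. Ly6a, another gene of that list, had no probe set that carried its symbol alone. Slamf1, which encodes a SLAM receptor used for the sort, lay between -2.03 and -0.80 relative to that median on the 14 arrays at 4 h and between -0.27 and 0.57 on the 8 arrays at 10 h. Pair 1 at 4 h stands apart from the other pairs in its GSI minus DMSO differences, and the named differences and the median of the members at 4 h are given with and without it.

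Against the gene median of the same array, 26 of the 33 macrophage genes had a mean above it in the 4 h DMSO samples and 28 in the 4 h GSI samples, and 20 and 18 did so at 10 h. Above it on every array were 13 of them, Axl, C1qa, C1qb, Cd68, Ctsb, Ctss, Cx3cr1, Fcgr1, Lgmn, Marco, Selenop, Sirpa and Slc40a1. Below it on every array were 3, the scavenger receptor Cd163, the Fc receptor Fcgr4 and the complement receptor Vsig4, which marks resident macrophages of the adult liver. By definition as many genes of an array lie above its gene median as below it, and the counts at 10 h were not far from such a split. A signal above that median does not by itself show macrophage RNA.

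The cultures set the members apart more than treatment did, as shown further on, so upstream sequences are given for genes that stood highest in different cultures at 4 h. RefSeq (GRCm38.p6) gave a start for 26 of the 33 genes. No entry was matched for Adgre1, C1qa, Maf, Slc40a1, Vcam1, Ctsb and Sirpa. The 250 bases before the start are printed 5′ to 3′ on the gene's strand, in lower case, with matches to 3 searched motifs in capitals on either strand. The motifs were GAGGAAGT, a core bound by the myeloid factor PU.1, TGCTGAC, part of the element bound by Maf proteins, and CACGTG, the E-box. C1qb, C1qc and Spic had their highest culture mean in culture 3. C1qb lies at chr4:136886201-136886450 (- strand), C1qc at chr4:136892915-136893164 (- strand) and Spic at chr10:88683024-88683273 (- strand).
C1qb: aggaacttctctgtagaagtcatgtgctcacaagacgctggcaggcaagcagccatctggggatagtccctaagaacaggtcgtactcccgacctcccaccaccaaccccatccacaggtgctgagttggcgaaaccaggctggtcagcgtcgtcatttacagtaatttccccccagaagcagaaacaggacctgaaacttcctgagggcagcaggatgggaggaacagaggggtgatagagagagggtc
C1qc: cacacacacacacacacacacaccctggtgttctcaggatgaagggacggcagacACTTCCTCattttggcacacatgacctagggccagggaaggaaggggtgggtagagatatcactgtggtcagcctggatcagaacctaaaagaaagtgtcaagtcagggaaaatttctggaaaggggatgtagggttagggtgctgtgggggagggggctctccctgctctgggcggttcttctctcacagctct
Spic: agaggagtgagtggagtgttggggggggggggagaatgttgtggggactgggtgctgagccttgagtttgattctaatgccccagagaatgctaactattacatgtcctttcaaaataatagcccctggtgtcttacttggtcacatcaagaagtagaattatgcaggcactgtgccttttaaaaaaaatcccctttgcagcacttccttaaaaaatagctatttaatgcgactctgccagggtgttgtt
Timd4, highest in culture 1, lies at chr11:46810549-46810798 (+ strand).
Timd4: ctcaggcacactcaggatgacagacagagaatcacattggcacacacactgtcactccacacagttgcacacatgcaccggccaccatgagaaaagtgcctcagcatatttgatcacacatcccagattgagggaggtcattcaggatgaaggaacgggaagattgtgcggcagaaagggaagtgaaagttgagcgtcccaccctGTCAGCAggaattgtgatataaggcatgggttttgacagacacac
Mrc1, Mertk and Selenop were highest in culture 6. Mrc1 lies at chr2:14229164-14229413 (+ strand), Mertk at chr2:128698665-128698914 (+ strand) and Selenop at chr15:3270517-3270766 (+ strand), the first listed of its 3 starts.
Mrc1: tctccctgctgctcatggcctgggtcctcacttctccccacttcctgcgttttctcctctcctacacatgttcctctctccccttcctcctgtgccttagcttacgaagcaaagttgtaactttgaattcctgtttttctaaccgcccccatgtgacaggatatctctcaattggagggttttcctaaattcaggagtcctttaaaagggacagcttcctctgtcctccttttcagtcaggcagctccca
Mertk: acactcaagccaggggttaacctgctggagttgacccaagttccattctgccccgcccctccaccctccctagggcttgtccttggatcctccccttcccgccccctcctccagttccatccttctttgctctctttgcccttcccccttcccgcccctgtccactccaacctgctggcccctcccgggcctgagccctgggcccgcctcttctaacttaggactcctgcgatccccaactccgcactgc
Selenop: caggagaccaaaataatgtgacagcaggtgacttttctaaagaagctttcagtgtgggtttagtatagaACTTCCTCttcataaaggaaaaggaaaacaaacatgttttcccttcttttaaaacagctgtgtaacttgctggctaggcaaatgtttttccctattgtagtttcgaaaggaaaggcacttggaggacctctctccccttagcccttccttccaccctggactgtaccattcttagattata

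GAGGAAGT was found in the upstream bases of 3 of the 26 genes, C1qc, Fcgr4 and Selenop, which is 11.5%, beside 2.79% of the 27025 genes in the table. In C1qc the match begins 195 bases before the start and in Selenop 181 bases, both on the opposite strand. TGCTGAC was found in Timd4 alone, 45 bases before its start, which is 3.85% of the members beside 4.31% of all genes. CACGTG was found in Lgmn alone, before 1 of its 2 starts, beside 6.86% of all genes. No match overlapped another. The PU.1 letters stand before C1qc and Fcgr4, whose highest means were in culture 3, and before Selenop, highest in culture 6. In Fcgr4 the match begins 24 bases before the start, again on the opposite strand. The 7 genes without an entry were not searched.

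The most visible pattern in the macrophage genes was the difference between cultures at 4 h. The F-test across the 7 cultures passed for 28 of the 33 genes (limma, Benjamini-Hochberg adjusted p under 0.05 over all genes), where 29.8% of all genes passed. This test sets the differences between cultures against the disagreement of the DMSO and GSI array of each culture, after the mean treatment effect. The genes that did not pass were Cd163, Clec4f, Fcgr1, Fcgr4 and Vsig4. The median SD between culture means was 0.66 for the macrophage genes and 0.15 for all genes, and the median ratio of the highest to the lowest culture was 3.63-fold and 1.36-fold. The ratio exceeded 2-fold for 25 of the 33 genes and reached 12.1-fold for Ms4a7, a membrane protein of tissue macrophages. Within pairs 4 to 7, which share a run, 16 of the 33 passed, beside 18.9% of all genes, so part of the spread lay between cultures of the same run. The genes that passed over all 7 cultures but not there were Axl, C1qa, Cd5l, Cd68, Cx3cr1, Gpnmb, Marco, Nr1h3, Sirpa, Spic, Timd4 and Trem2, with adjusted p from 0.055 to 0.865.

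**Figure D1:**
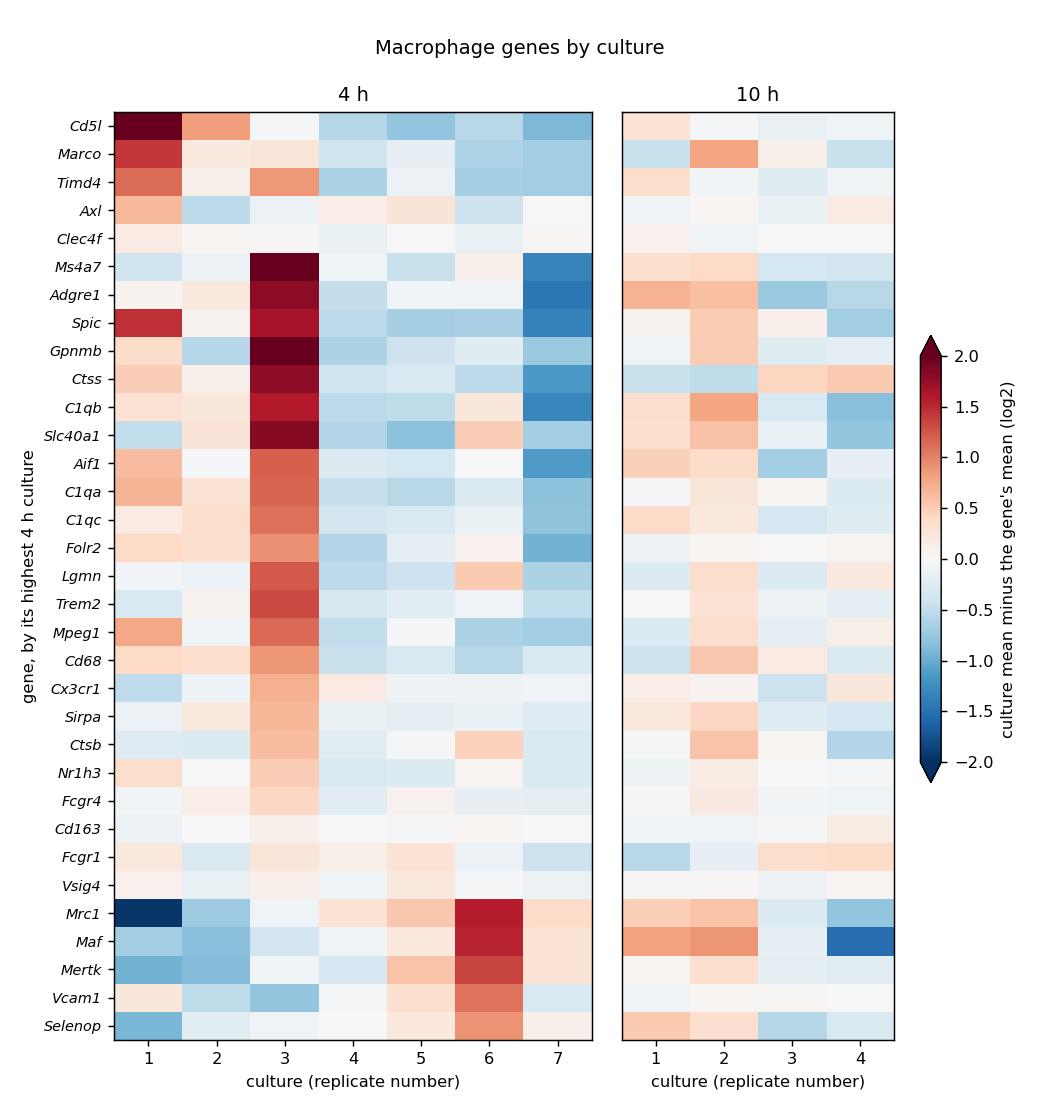
Culture means of the 33 macrophage genes, each minus the gene's own mean over the cultures of that time (log2, colour), with genes in rows by the culture in which they were highest at 4 h, and cultures in columns for 4 h and 10 h. Culture 3 is highest for 21 genes, culture 6 for 5, culture 1 for 5 and culture 5 for 2 at 4 h.

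Culture 3 was the highest culture at 4 h for 21 of the 33 genes, 63.6%, beside 13.3% of all genes, and culture 7 was the lowest for 19, 57.6%, beside 10.6%. The 21 genes span most roles on the list: the 3 C1q chains, the surface proteins Adgre1, Cx3cr1 and Ms4a7, the cytoplasmic protein Aif1, the lysosomal genes Lgmn, Ctsb, Ctss, Gpnmb and Mpeg1, and the transcription factors Spic and Nr1h3. The remaining members of that group were Cd68, Slc40a1, Cd163, Trem2, Sirpa, Fcgr4 and Folr2. The 5 genes highest in culture 1 were Marco, Cd5l, Timd4, Clec4f and Axl, and the 5 highest in culture 6 were Mrc1, Maf, Selenop, Mertk and Vcam1. Each set is 15.15% of the members. Of all genes, 20.1% were highest in culture 1 and 29% in culture 6, so neither share of the members exceeds that of all genes. Vsig4 and Fcgr1 were highest in culture 5. Cd163, Fcgr4, Clec4f, Vsig4 and Fcgr1 did not differ between cultures by the test, so their place in this order is within their spread.

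The C1q chains, which assemble into the first component of the classical complement pathway, lie side by side on chromosome 4. C1qb read between 6.31 and 9.51 on the 4 h DMSO arrays with a median of 7.79, and between 6.79 and 9.36 on the GSI arrays with a median of 7.92. Its culture means ran from 6.55 in culture 7 to 9.44 in culture 3, 7.41-fold (adjusted p = 0.00137). C1qa ran from 5.76 to 7.74 between the same cultures, 3.95-fold, but did not pass within pairs 4 to 7 (adjusted p = 0.28), and C1qc ran from 5.40 to 7.31, 3.76-fold. All 3 chains therefore had the same highest and the same lowest culture, and the DMSO and GSI arrays of culture 3 were the top arrays of their groups for each.

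Among genes used as macrophage markers, Adgre1, which encodes the F4/80 antigen used to define mouse macrophages, read 4.70 to 7.80 on DMSO arrays at 4 h with a median of 5.85, and 4.45 to 7.80 on GSI arrays with a median of 6.08. Its culture means differed 9.36-fold between culture 3 at 7.80 and culture 7 at 4.58 (adjusted p = 0.000192). Ms4a7 differed 12.1-fold, from 4.24 in culture 7 to 7.84 in culture 3 (adjusted p = 2.09e-05). Aif1, a calcium-binding protein inside activated macrophages, differed 4.99-fold between the same cultures. For Adgre1, Ms4a7 and Aif1 the array of culture 3 was the top of its group and that of culture 7 the lowest, in DMSO and in GSI alike.

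**Figure D2:**
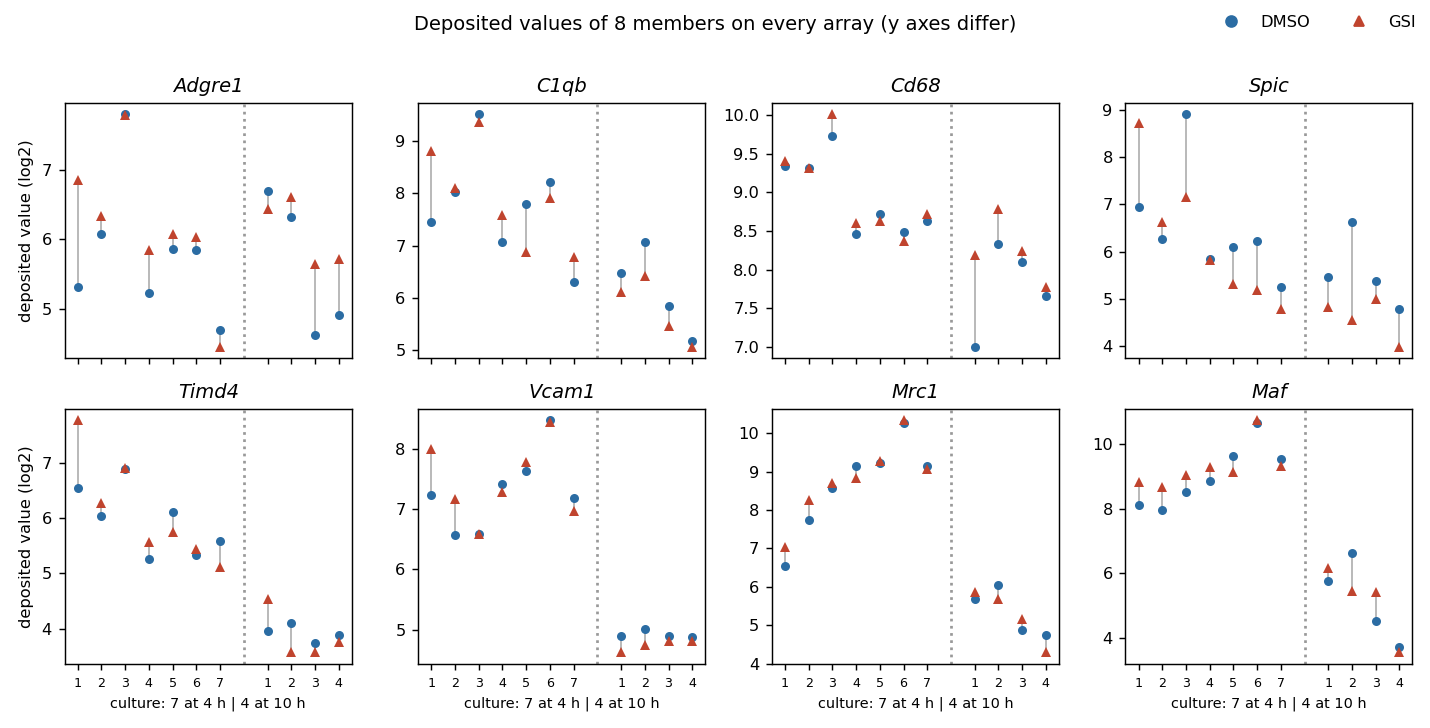
Deposited log2 values of 8 macrophage genes on all 22 arrays (y axes differ between panels), with DMSO as circles and GSI as triangles and a grey line joining the arrays of a pair; the dotted line divides 7 cultures at 4 h from 4 at 10 h, whose array medians differ. Adgre1, C1qb and Cd68 peak in culture 3, Timd4 in culture 1, and Vcam1, Mrc1 and Maf in culture 6.

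Cd68, a lysosomal membrane protein of the scavenger family, read 8.46 to 9.73 in 4 h DMSO samples with a median of 8.72, and 8.38 to 10.01 in GSI samples with a median of 8.72. Its cultures fell into a higher set, 1 to 3, and a lower set, 4 to 7, with no overlap between the arrays of the sets, and the range was 2.71-fold (adjusted p = 3.12e-06). Those sets are also different runs, and within pairs 4 to 7 Cd68 did not pass (adjusted p = 0.302). Spic is the transcription factor of the splenic and marrow macrophages that recycle red cell iron. It ran 8.02-fold from culture 7 at 5.02 to culture 3 at 8.02 (adjusted p = 0.006), and within pairs 4 to 7 it did not pass (adjusted p = 0.0885). The mean of Spic in culture 1 was close to that of culture 3, at 7.83. Its top DMSO array was that of culture 3 (8.90), and its top GSI array that of culture 1 (8.72). Slc40a1, which encodes the iron exporter ferroportin, ran 6.22-fold from 6.12 in culture 5 to 8.76 in culture 3 (adjusted p = 0.000309).

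The lysosomal genes moved over different ranges. Ctss, a cathepsin of antigen-presenting cells, differed 7.71-fold and Gpnmb, a glycoprotein of lysosome-rich macrophages, 7.84-fold. Lgmn, an endopeptidase, differed 3.60-fold and Mpeg1, a pore-forming protein, 3.52-fold. Ctsb, a cathepsin that many cell types carry, differed 1.89-fold (adjusted p = 0.00537). All 5 had their highest mean in culture 3 and their lowest in culture 7.

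Leaving out culture 3 left 24 of the 33 genes past the threshold. The share of all genes that passed without that culture is not given here. The genes that lost the call were Cx3cr1 (adjusted p = 0.102), Gpnmb (0.082), Sirpa (0.148) and Trem2 (0.273). The call stood under every setting tried for 16 genes: Adgre1, Aif1, C1qb, C1qc, Ctsb, Ctss, Folr2, Lgmn, Maf, Mertk, Mpeg1, Mrc1, Ms4a7, Selenop, Slc40a1 and Vcam1.

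A smaller set kept another order. Mrc1, the mannose receptor, read 6.55, 7.74, 8.57, 9.15, 9.23, 10.26 and 9.15 in the DMSO samples of cultures 1 to 7, and its culture means ran 11.4-fold from culture 1 to culture 6 (adjusted p = 4.78e-07). Maf, a transcription factor of mature macrophages, ran 5.17-fold from 8.32 in culture 2 to 10.69 in culture 6 (adjusted p = 0.000112). Mertk, a receptor kinase for dying cells, ran 4.90-fold from 6.10 in culture 1 to 8.40 in culture 6 (adjusted p = 3.82e-05). Selenop, a secreted selenium carrier, ran 3.52-fold and Vcam1, the adhesion molecule of island macrophages, 3.67-fold, with their highest mean in culture 6 too. In culture 3, where the C1q chains stood highest, Vcam1 had its lowest mean, 6.58.

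Endothelial markers had that same highest culture. All 10 genes of an endothelial list (Pecam1, Cdh5, Kdr, Stab2, Lyve1, Flt1, Emcn, Clec14a, Tie1 and Oit3) were highest in culture 6 and lowest in culture 1 at 4 h, and all 10 passed the test between cultures. Of all genes, 29% were highest in culture 6 and 18.8% lowest in culture 1. Their mean level over cultures 1 to 7 was 7.57, 8.65, 8.63, 9.20, 9.58, 10.40 and 9.47, and that of the C1q chains was 7.26, 7.17, 8.16, 6.43, 6.43, 6.81 and 5.90. Mrc1, Maf, Vcam1 and Mertk are also known from endothelial cells of the liver, and the part of such cells in these values was not tested.

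**Figure D3:**
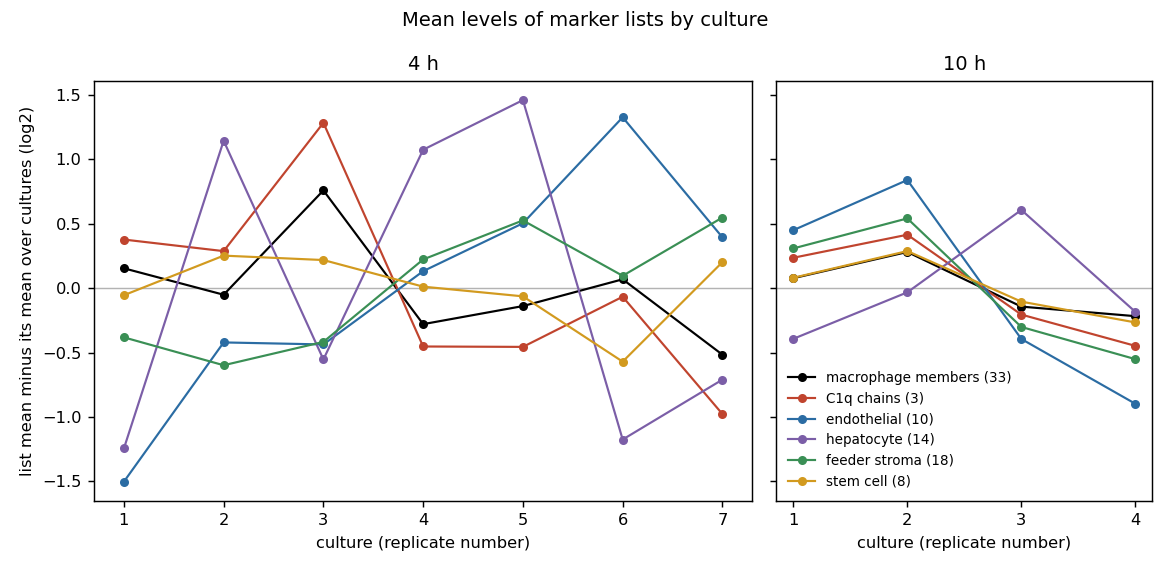
Mean level of 6 gene lists in each culture (average of the DMSO and GSI array), minus the list's mean over the cultures of that time (log2); lines only join the points of a list. At 4 h the C1q chains peak in culture 3 and the endothelial list in culture 6, while hepatocyte genes peak in culture 5.

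Other cell types' genes also differed between the 4 h cultures. The test passed for 17 of 18 feeder stroma genes, 13 of 14 hepatocyte genes, 8 of 8 erythroid genes, 8 of 8 stem cell genes and 10 of 18 neutrophil and monocyte genes. Hepatocyte genes were highest in culture 5 for 13 of 14, with list means from 6.16 to 8.86 over the cultures. Erythroid genes were highest in culture 7 for 6 of 8, the culture that was lowest for most macrophage genes. Stem cell genes had list means from 7.47 in culture 6 to 8.29 in culture 2. The part of these differences in the macrophage values was not tested.

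Of the regulators and partners of the macrophage programme, 27 of 29 differed between the 4 h cultures, where 29.8% of all genes did. Highest in culture 3 were 14 of them, 48.3%, beside 13.3% of all genes. Highest in culture 6 were 11, 37.9%, beside 29% of all genes. Csf1r, the receptor for the growth factor that macrophages need, was among the genes whose values followed the mean of the 33 most closely. With each group's mean removed, the 10 closest genes outside the list over 22 arrays were Adap2 (Pearson r = 0.933), Csf1r (0.920), Psap (0.893), Abcc3 (0.891), Lpl (0.890), C5ar1 (0.888), Msr1 (0.872), Cd300c2 (0.866), C3ar1 (0.865) and Lilrb4a (0.861). Those arrays share cultures in pairs, and these values are a description.

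Within the list, r with the members' mean, which includes the gene itself, was 0.953 for C1qb, 0.927 for Adgre1, 0.904 for C1qc, 0.893 for Ms4a7 and 0.887 for Gpnmb. It was near 0 for Mrc1 (-0.02), Mertk (0.04), Axl (0.06), Selenop (0.07), Clec4f (0.13), Fcgr1 (0.14), Maf (0.15), Vcam1 (-0.13) and Cd163 (-0.00). The list thus did not move as 1 block: all 5 genes highest in culture 6 were among those with r near 0, beside Axl, Clec4f, Fcgr1 and Cd163, which were highest in other cultures.

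At 10 h the cultures differed less clearly. The test passed for 4 of 33 genes, C1qb, Ctss, Maf and Mrc1, where 1.46% of all genes passed. C1qb read 6.47, 7.06, 5.84 and 5.17 on the DMSO arrays of cultures 1 to 4 and 6.12, 6.41, 5.46 and 5.06 on the GSI arrays (adjusted p = 0.0218). Maf read 5.77, 6.62, 4.54 and 3.72 in DMSO and 6.18, 5.46, 5.44 and 3.56 in GSI (adjusted p = 0.0488). Mrc1 read 5.69, 6.04, 4.88 and 4.73 in DMSO and 5.86, 5.69, 5.17 and 4.29 in GSI (adjusted p = 0.0498).

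C1qb, Maf and Mrc1 were thus higher in cultures 1 and 2, which share a run, than in cultures 3 and 4, which share the other, and Ctss went the other way. Ctss read 6.99, 6.86, 7.71 and 8.01 in DMSO and 6.59, 6.59, 7.59 and 7.49 in GSI (adjusted p = 0.0431). The run and the culture cannot be told apart in that split. None of the 4 calls stood in every setting: 0 genes passed without culture 4, 1 without culture 2, 2 without culture 3 and 6 without culture 1. Shares of all genes in these smaller fits are not given here. The endothelial list had the same order, with means of 6.97, 7.36, 6.13 and 5.63, and 5 of its 10 genes passed.

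The comparison of 10 h with 4 h asks whether the longer culture left fewer macrophage transcripts in the sort. It was made on values minus each array's gene median, because the deposited medians of both times differ, and time and run cannot be told apart in it. In the DMSO arm 14 of 33 macrophage genes passed, 3 higher and 11 lower at 10 h, where 52.7% of all genes passed, 42% higher and 10.7% lower. In the GSI arm 18 passed, 2 higher and 16 lower, where 55.5% of all genes passed, 44.7% higher and 10.8% lower. The median difference of the macrophage genes was -0.46 in DMSO and -0.80 in GSI, beside 0.25 and 0.26 for all genes. Without 4 h culture 3 or 10 h culture 4 the DMSO median was -0.29. The GSI median was -0.63 without 4 h culture 1, -0.58 without 4 h culture 3 and -0.97 without 4 h culture 7. Under quantile normalization the medians of all genes were 0.04 in both arms and those of the members -0.46 and -0.85.

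**Figure D4:**
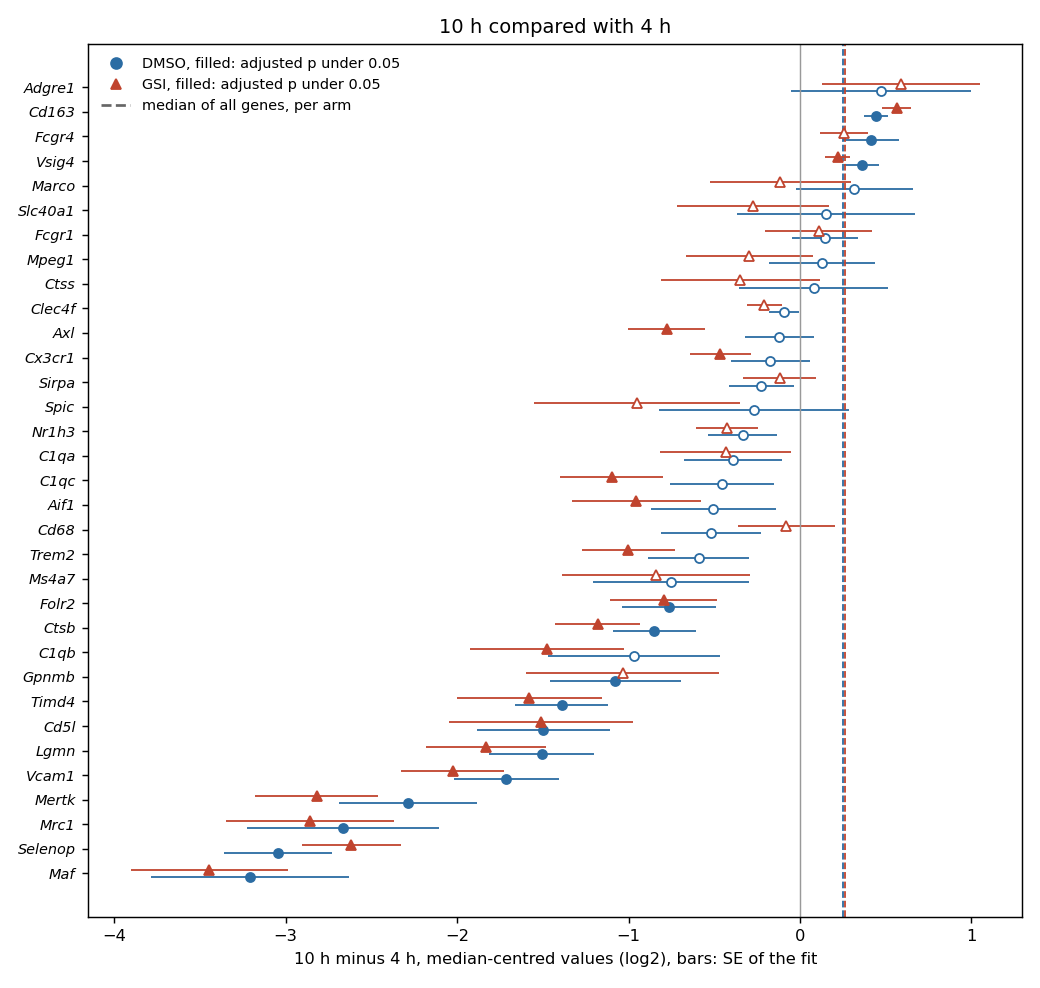
Difference of 10 h minus 4 h for the 33 macrophage genes in the DMSO arm (circles) and the GSI arm (triangles), on median-centred log2 values with the SE of the fit; filled symbols have an adjusted p under 0.05, and dashed lines give the median of all genes in each arm. Maf, Selenop, Mrc1 and Mertk lie lowest, and most members lie left of the dashed lines.

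The split of the calls moved with the scaling. Under quantile normalization 0 members were higher and 11 lower in DMSO, where 18.8% of all genes were higher and 15.3% lower. In GSI 1 was higher and 16 lower, where 20.9% and 16.1% of all genes were. On the values as deposited 0 were higher in both arms, where 2.09% of all genes were in DMSO and 2.12% in GSI. There 26 and 27 members were lower, where 58.1% and 65% of all genes were, with all-gene medians of -0.41 and -0.42. The genes called higher, Cd163, Vsig4 and, in DMSO, Fcgr4, are those with signals below the array median throughout, and their sign turned on the values as deposited in both arms, for Vsig4 under quantile normalization too. Fcgr4 also lost its DMSO call without 4 h culture 1, 4, 6 or 7 or 10 h culture 1 or 2, and Vsig4 its GSI call without 10 h culture 2 or 4. With no variance trend Fcgr4 lost its DMSO call too (adjusted p = 0.0576).

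The lower calls were led by the members that peaked in culture 6 at 4 h. Selenop read between 2.72 and 4.80 above the array median on the 4 h DMSO arrays, with a median of 4.00, and 1.27, 1.27, 0.32 and 0.57 at 10 h, a fall of 3.04 ± 0.32 (SE, adjusted p = 1.79e-05). Maf read 2.53 to 5.28 with a median of 3.44 at 4 h and 1.00, 1.87, -0.16 and -1.09 at 10 h, and fell by 3.21 ± 0.58 (adjusted p = 0.000575). Both genes had every 10 h array below every 4 h array in both arms.

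Mertk read 0.27 to 2.83 above the array median at 4 h in DMSO, with a median of 1.66, and -0.67, -0.41, -0.998 and -1.15 at 10 h, and fell by 2.29 ± 0.40 (adjusted p = 0.000486). Mrc1 read 1.14 to 4.91 with a median of 3.73 and then 0.93, 1.30, 0.18 and -0.07, and fell by 2.66 ± 0.56 (adjusted p = 0.0016), with 1 overlap, the 4 h DMSO array of culture 1 lying below the highest 10 h array. Vcam1 read 1.13 to 3.12 with a median of 1.82 and then 0.13, 0.27, 0.19 and 0.08, and fell by 1.71 ± 0.31 (adjusted p = 0.000548). At 10 h the Vcam1 arrays of both arms lay between -0.17 and 0.27 relative to the array median.

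In the GSI arm the same 5 genes fell by 2.62 ± 0.29 (Selenop), 3.45 ± 0.46 (Maf), 2.82 ± 0.36 (Mertk), 2.86 ± 0.49 (Mrc1) and 2.03 ± 0.30 (Vcam1). Their adjusted p-values lay between 2.15e-05 for Selenop and 0.000395 for Mrc1. On every GSI array at 10 h these genes read below every GSI array at 4 h. The test of whether the change with time differs between the arms is the difference of GSI effects given further on, where none of the 33 passed.

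Genes of other cell types moved between the times too. In DMSO 9 of the 10 endothelial genes fell, with a list median of -1.90, and 8 of 10 did so in GSI, with a median of -2.11; Stab2 fell by 2.52 and Flt1 by 2.23 in DMSO. Hepatocyte genes fell for 9 of 14 in DMSO, with a list median of -1.91, and for 7 of 14 in GSI, with -1.75. Feeder stroma genes fell for 5 of 18 and 11 of 18. Of the 8 genes of the stem cell list, 3 fell in DMSO, Procr by 1.60, Tek by 1.66 and Mecom by 0.99, and Slamf1 rose by 1.42. In GSI Procr fell by 1.72 and Tek by 1.51, and Slamf1 rose by 1.65. Erythroid genes were called higher for 4 of 8 in each arm, near the share of all genes called higher, 42% in DMSO and 44.7% in GSI. Neutrophil and monocyte genes were called higher for 3 of 18 in DMSO and 5 of 18 in GSI, below those shares, and F13a1 was called lower in GSI. On the values as deposited 0 erythroid genes were called higher in DMSO and 2 in GSI, and 0 neutrophil and monocyte genes in either arm. Whether endothelial or hepatocyte RNA had a part in the macrophage values was not tested.

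Of the 9 genes grouped as scavenger and clearance receptors, 4 were called lower and 2 higher at 10 h in each arm. Mrc1, Timd4, Cd5l and Folr2 were lower and Cd163 and Vsig4 higher, while Cd68, Marco and Clec4f passed in neither arm. Of all genes, 10.7% were called lower and 42% higher in DMSO, and 10.8% and 44.7% in GSI. Timd4, which binds phosphatidylserine on dying cells, read -0.15 to 1.45 relative to the array median at 4 h in DMSO, with a median of 0.60, and -0.82, -0.64, -0.97 and -0.92 at 10 h, and fell by 1.39 ± 0.27 (adjusted p = 0.000988). Cd5l, a secreted protein that macrophages make against apoptosis, read -1.11 to 1.40 with a median of -0.62 and then -1.41, -1.63, -1.80 and -1.75, and fell by 1.50 ± 0.39 (adjusted p = 0.00593). In DMSO neither gene overlapped between the times. In GSI Timd4 fell by 1.58 ± 0.42 (adjusted p = 0.00681) and Cd5l by 1.51 ± 0.54 (adjusted p = 0.0297), a call that Cd5l lost without 4 h culture 2 or 10 h culture 2, 3 or 4 (adjusted p from 0.0532 to 0.0681). Folr2, a folate receptor of resident macrophages, fell by 0.76 ± 0.28 and 0.80 ± 0.31. In DMSO it lost the call without 4 h culture 2 or 6 or 10 h culture 1, 2 or 3 (adjusted p from 0.0504 to 0.0923), and in GSI without 4 h culture 1, 2, 3 or 6 or any 10 h culture (0.0535 to 0.1). Folr2 also lost the DMSO call among genes above the median signal (adjusted p = 0.0529) and the GSI call with no variance trend (adjusted p = 0.0504).

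Of the lysosomal genes, Lgmn fell by 1.51 ± 0.31 in DMSO (adjusted p = 0.0013) and by 1.83 ± 0.35 in GSI (adjusted p = 0.000813), with no overlap in either arm. Ctsb fell by 0.85 ± 0.24 (adjusted p = 0.0107) and by 1.18 ± 0.25 (adjusted p = 0.00147). Gpnmb fell in DMSO by 1.08 ± 0.38 (adjusted p = 0.0299) and its GSI difference was -1.03 ± 0.56 (adjusted p = 0.134). Without 10 h culture 1, 3 or 4 the DMSO call of Gpnmb was lost, with adjusted p between 0.0713 and 0.0801. Ctss and Mpeg1 passed in neither arm.

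Several genes by which macrophages are usually recognised did not pass in DMSO. Adgre1 read 1.94, 1.58, -0.08 and 0.10 relative to the array median at 10 h in DMSO, within its 4 h range of -0.73 to 2.35, and differed by 0.47 ± 0.52 (adjusted p = 0.469). In GSI Adgre1 read 1.65, 1.87, 0.98 and 0.99, again within its 4 h range, and differed by 0.59 ± 0.46 (adjusted p = 0.294). Cd68 read 2.24, 3.59, 3.40 and 2.85 in DMSO at 10 h beside 3.04 to 4.28 at 4 h, and differed by -0.52 ± 0.29 (adjusted p = 0.151). C1qa differed by -0.39 ± 0.29 and -0.43 ± 0.38 in DMSO and GSI.

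C1qb read 1.70, 2.32, 1.14 and 0.36 in DMSO and 1.33, 1.67, 0.78 and 0.33 in GSI at 10 h, beside 4 h ranges of 0.88 to 4.06 and 1.36 to 3.92. Its difference was -0.97 ± 0.50 in DMSO (adjusted p = 0.122), and in GSI it fell by 1.47 ± 0.45 (adjusted p = 0.0141). Without 10 h culture 4 the GSI call was lost (adjusted p = 0.0545), and without 4 h culture 7 the DMSO difference passed, at -1.21 (adjusted p = 0.0422). C1qc fell in GSI by 1.10 ± 0.30 (adjusted p = 0.00778), with no overlap, and differed by -0.46 ± 0.30 in DMSO.

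The other genes called in GSI alone were Aif1 (-0.95 ± 0.38), Axl (-0.78 ± 0.22), Cx3cr1 (-0.47 ± 0.18) and Trem2 (-1.0 ± 0.27). Axl, a receptor kinase for dying cells like Mertk, and Trem2, a lipid-sensing receptor, kept their calls in every setting tried. Aif1 lost its call without 4 h culture 1, 2, 3 or 6 or any 10 h culture (adjusted p from 0.0578 to 0.129). Cx3cr1 lost its call without 4 h culture 3, 4 or 7 or 10 h culture 1, 3 or 4 (0.0503 to 0.127). Under quantile normalization neither passed (adjusted p = 0.0784 for Aif1 and 0.0799 for Cx3cr1). With no variance trend Aif1 did not pass either (adjusted p = 0.0506). A call in 1 arm and not in the other does not show that the arms differ. The 13 genes that passed in neither arm were Adgre1, C1qa, Cd68, Clec4f, Ctss, Fcgr1, Marco, Mpeg1, Ms4a7, Nr1h3, Sirpa, Slc40a1 and Spic.

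Counted by array, every 10 h array lay below every 4 h array for 7 of the 33 genes in DMSO (Cd5l, Timd4, Maf, Vcam1, Lgmn, Mertk and Selenop), where 5.37% of all genes did so. In GSI 11 did (C1qc, Mrc1, Cd5l, Maf, Vcam1, Lgmn, Ctsb, Trem2, Mertk, Axl and Selenop), where 6.24% of all genes did. Every 10 h array lay above every 4 h array for Vsig4 and Cd163 in DMSO and for Cd163 in GSI, beside 28.6% and 30.2% of all genes, and on these 2 genes the sign depends on the scaling as given above.

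Of the 29 regulators and partners of the programme, 14 fell and 1 rose at 10 h in DMSO, and 17 fell and 1 rose in GSI. Id3, a transcription regulator of liver macrophages, fell by 2.63 and 2.76 in DMSO and GSI, and Hmox1, the enzyme that opens haem, fell by 2.41 and 2.67. Irf8, a factor of monocyte and macrophage fate, fell by 2.26 and 2.28, and Stab1, a scavenger receptor that liver endothelium also carries, by 2.05 and 2.25. Lyz2, a lysozyme of myeloid cells, rose by 0.64 and 0.57, but on the values as deposited its differences were -0.03 and -0.11.

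GSI blocks gamma-secretase, the protease that frees the active part of Notch receptors, and GSI minus DMSO within pairs asks how that block bears on these transcripts. No group lacked the feeder layer, so the part of its Notch ligand cannot be told apart from other effects of the block. At 4 h 0 of the 33 macrophage genes passed (limma with the pair as a block, every adjusted p = 0.999), where 0.00451% of all genes passed, which is 1 gene. At an unadjusted p under 0.05 were 2 of the 33, beside 4.21% of all genes. The median difference was 0.11, and 22 of 33 were above 0, where 12041 of all 22180 genes were. Without pair 3 the median was 0.07, and without pair 1 it was 0.02. The differences with the lowest p were those of Mertk, 0.29 ± 0.11, and C1qc, 0.26 ± 0.11. Adgre1 differed by 0.37 ± 0.18 and Spic by -0.27 ± 0.30. Single pairs set these sizes: without pair 1 the differences were 0.20 for Mertk, 0.17 for C1qc, 0.17 for Adgre1 and -0.61 for Spic. Without pair 3 that of Spic was -0.02.

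**Figure D5:**
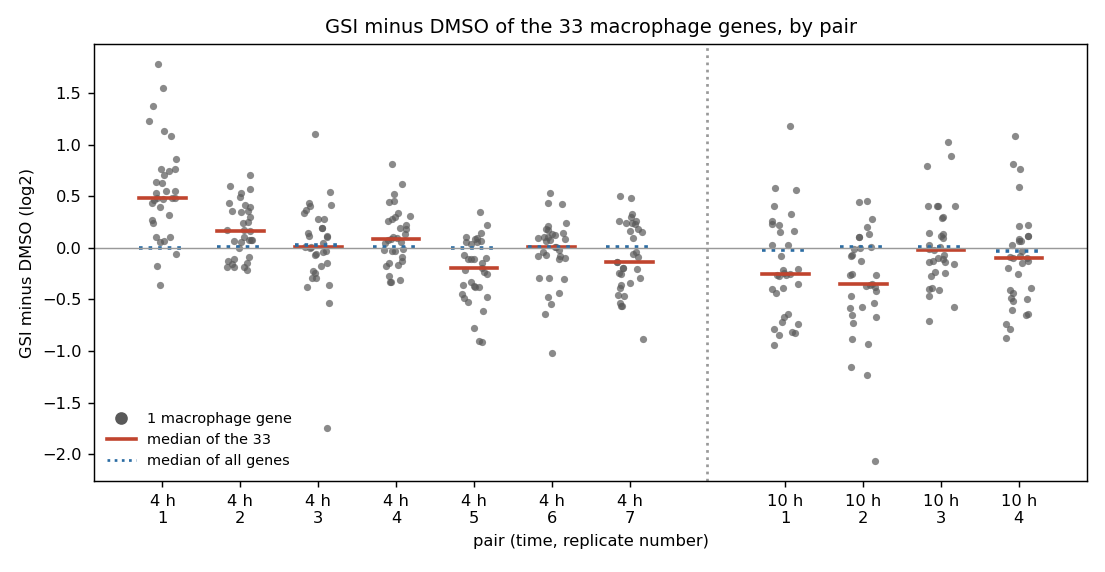
GSI minus DMSO (log2) of each of the 33 macrophage genes in each pair, with 7 pairs at 4 h and 4 at 10 h; solid bars are medians of the 33 and dotted bars medians of all genes. The median is 0.48 in pair 1 at 4 h and lies between -0.36 and 0.16 in the other pairs.

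Pair 1 at 4 h carried most of that shift. In it 30 of the 33 genes were higher in the GSI array, with a median of 0.48, while the median of all genes was -0.00. Higher by 1 or more were 6 members, Spic (1.78), Adgre1 (1.54), C1qb (1.37), Timd4 (1.23), Cd5l (1.13) and Slc40a1 (1.09), where 0.839% of all genes were higher and 0.298% lower by as much. No member was lower by 1 or more in that pair. Without pair 1, 21 of the 33 were above 0. The median was 0.12 within pairs 2 and 3 and -0.03 within pairs 4 to 7.

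Genes of other cell types moved the same way in that pair. The median GSI minus DMSO difference in pair 1 was 0.90 for the 18 feeder stroma genes, of which 8 were higher by 1 or more, and 0.83 for the 18 neutrophil and monocyte genes, of which 7 were. It was 0.55 for hepatocyte genes, 0.26 for endothelial genes and -0.00 for stem cell genes. The part of these cells in the macrophage values of pair 1 was not tested. In the other 4 h pairs the members' median was 0.16, 0.01, 0.09, -0.19, 0.01 and -0.14.

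Single genes changed sign from pair to pair. C1qb differed by 1.37, 0.07, -0.15, 0.52, -0.92, -0.30 and 0.48 in pairs 1 to 7 at 4 h, and Spic by 1.78, 0.35, -1.75, -0.02, -0.77, -1.02 and -0.46. C1qc, Fcgr1 and Clec4f were higher in the GSI array in 6 of 7 pairs, and Cx3cr1 and Folr2 were higher in 1 of 7. The shares of all genes that did so are not given here. Within pairs 2 and 3, which share a run, Maf (0.62, adjusted p = 0.0224) and Ctsb (0.36, adjusted p = 0.0376) passed in limma, and neither did in any other setting. That fit rests on 2 pairs, and the share of all genes that passed in it is not given here.

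At 10 h 0 of the 33 passed in limma, where 0.667% of all genes passed, which is 148 genes. At an unadjusted p under 0.05 were 12 of the 33, beside 14.1% of all genes. The median difference was -0.21, and 8 of 33 were above 0, where 10255 of all 22180 genes were. Axl had the lowest adjusted p, 0.0781, with a difference of -0.58 ± 0.14. It read 7.00, 7.23, 6.71 and 7.07 in DMSO and 6.28, 6.30, 6.44 and 6.67 in GSI, so all 4 GSI arrays lay below all 4 DMSO arrays. It passed only when genes below the median signal were left out (adjusted p = 0.0458).

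Cx3cr1, the fractalkine receptor, differed by -0.48 ± 0.12 (adjusted p = 0.090), lower in GSI in 4 of 4 pairs. Cd68 differed by 0.47 ± 0.14 (adjusted p = 0.123), higher in 4 of 4 pairs with 1.18, 0.45, 0.13 and 0.11. Marco, a scavenger receptor with a collagen-like stalk, differed by -0.53 ± 0.16, and passed without pair 3 (-0.74, adjusted p = 0.0463). Spic had the widest difference, -0.98 ± 0.40 (adjusted p = 0.273), with pairs at -0.64, -2.07, -0.40 and -0.79. Like Axl, Cx3cr1 and Spic, the genes Mertk, C1qb, Ctss, Trem2, Aif1, Vcam1 and Vsig4 were lower in GSI in 4 of 4 pairs. Like Cd68, the genes Cd5l, Gpnmb, Sirpa and Selenop were higher in 4 of 4 pairs. None of these genes passed. The shares of all genes with the same sign in 4 of 4 pairs, or without overlap of arrays as for Axl, are not given here. Without them these lists do not show a response particular to the members.

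The members' medians by pair at 10 h were -0.25, -0.36, -0.02 and -0.10. In the same comparison 4 of 8 stem cell genes rose, Mecom (0.82), Hlf (0.73), Mllt3 (0.54) and Hoxa9 (1.02), and 2 of 18 feeder stroma genes fell, Fabp4 (-2.05) and Cd248 (-1.33). Of 18 neutrophil and monocyte genes 1 rose, Csf3r (0.88). Of the 29 macrophage regulators 0 passed in limma, with 5 at an unadjusted p under 0.05, where 14.1% of all genes were.

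The change in the GSI effect from 4 h to 10 h was tested directly. Of the 33 genes 0 passed in limma, where 0.018% of all genes passed, which is 4 genes. At an unadjusted p under 0.05 were 9 of the 33, beside 9.36% of all genes. The median was -0.21, and 6 of 33 were above 0, where 10285 of all 22180 genes were. Without 10 h culture 3 the median was -0.34. The lowest adjusted p was that of Axl, 0.397, with -0.68 ± 0.18, followed by C1qc with -0.66 ± 0.18 (adjusted p = 0.403) and Mertk with -0.55 ± 0.19 (adjusted p = 0.407). For these genes the data give no call at either time and no call for the difference.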

How the data were processed

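RNA of 22 sorted samples was measured on 1-colour arrays. The deposited values are log2 signals that the authors made with RMA in Partek 6.6, per the submitters' processing notes; the array design and the normalization of both times together or apart are not given in the sources used here. Of 41345 probe sets, 23521 have 1 gene symbol, 1814 several and 16010 none. The rule was the probe set with the highest mean per gene. Tests used limma 3.58.1 in R 4.3.3 (lmFit, eBayes with trend, 2-sided) over 22180 genes with Benjamini-Hochberg adjustment and a threshold of 0.05. GSI effects came from a fit of all arrays with the pair as a block, since the design text states that each replicate held a DMSO and a GSI sample. Times were compared within each arm on values minus the array's median. Cultures were compared by an F-test of the pair terms within each time. Named genes are the members, the called genes of the context lists (at most 5 each, smallest p) and the 10 genes closest to the mean of the members. The members and lists were chosen with earlier results of these data known. Separate livers or litters behind the replicates are not described beyond "biological", so p-values measure spread among these samples alone. For the F-test between cultures that spread is the disagreement of the DMSO and GSI array of a culture, after the mean treatment effect. No culture had replicate arrays of the same treatment. For GSI effects it is the spread of the differences within pairs, and for times the spread between arrays of an arm. The fits were tested on simulated data. Array number limits precision. Some genes of the context lists are not reported here.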

Additional observations from a re-analysis of the deposited data

Results flagged for a closer look

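In 198 groups of values (each member's level per group, and its GSI minus DMSO differences per time) 16 single values stood far from the rest of their group, where chance alone flags about 1 in 20 groups.

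Of these, 7 lay in culture 3 at 4 h, the culture in which most members were highest. Ms4a7 read 7.74 in DMSO and 7.93 in GSI there, Trem2 6.90 and 7.01, Gpnmb 7.32 in DMSO, Sirpa 8.92 in GSI and Fcgr4 4.65 in GSI, each the highest of 7 arrays. Marco read 8.05 in GSI in culture 1 and Maf 10.7 in GSI in culture 6, again the highest of 7.

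At 10 h, culture 2 was the highest of 4 DMSO arrays for Marco (6.98), Vcam1 (5.01) and Gpnmb (4.41). Cd5l was highest in culture 1 of the GSI arrays (3.59), and Slc40a1 lowest in culture 4 of the GSI arrays (5.13).

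Among GSI minus DMSO differences at 4 h, pair 1 was the highest for Folr2 (0.55), the only pair in which that gene was higher in GSI, and pair 4 was the lowest for Clec4f (-0.15). What sets these arrays apart was not tested.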

How the results depend on the processing

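Calls between cultures at 4 h numbered 28 under quantile normalization, the mean of all probe sets, no variance trend, and quantile normalization without pair 1 (chosen after seeing the data), and 16 within pairs 4 to 7; leaving out 1 culture gave 24 to 29. At 10 h they numbered 7 for genes above the median signal, a setting with fewer genes tested, and 0 to 6 with 1 culture left out. The 10 h minus 4 h calls in DMSO numbered 8 for genes above the median signal and 26 on the values as deposited, and 11 to 14 with 1 culture left out; in GSI 13 to 19.

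The sign turned for the following differences of 10 h minus 4 h. On the values as deposited, they were -0.22 (Cd163), -0.52 (Fcgr1), -0.25 (Fcgr4) and -0.30 (Vsig4) in DMSO, and -0.12 (Cd163), -0.43 (Fcgr4) and -0.46 (Vsig4) in GSI. Under quantile normalization Vsig4 was -0.12 in DMSO and -0.23 in GSI, and also without pair 1 -0.086 and -0.24. The values as deposited keep the offset between the array medians of both times.

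GSI minus DMSO at 4 h gave 2 calls within pairs 2 and 3 and 0 elsewhere. At 10 h it gave 1 for genes above the median signal and 0 to 1 with 1 pair left out. The cause of these shifts in count was not tested. In this section the shares of all genes that passed are not set beside the counts. A change in count alone therefore does not show a change particular to the members. Without the replicate block, 0 members passed at 4 h, at 10 h and for the difference of the effects, as with it, so the pairing changed no call. Signals near the low end, as for Cd163, Vsig4 and Fcgr4, limit what the arrays can show.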
